A study of Homo sapiens with 8 samples.

Results

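The p53 target genes described here are 33 named genes that are textbook transcriptional targets of the tumour suppressor p53, out of 57736 genes measured. They were chosen by name, with earlier results of these data known. All 33 were found by Ensembl identifier, and all 33 were among the 22100 genes tested, so no member was lost to the filter on low values. They were split by role into 9 genes of cell cycle arrest and p53 feedback, 14 of cell death and survival, 8 of DNA repair and redox metabolism, and 2 others.

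RNA was sequenced in 8 libraries of LS174T, an established cell line from a human colon adenocarcinoma. Its derivatives studied here express the Tet repressor and, when doxycycline is added, a short hairpin RNA against WiNTRLINC1, a Wnt-regulated long non-coding RNA, or against ASCL2, a bHLH factor of the intestinal crypt. The 4 groups of 2 libraries were the WiNTRLINC1 line after 3 days in doxycycline at 1 ug/ml, the untreated WiNTRLINC1 line, the ASCL2 line after 3 days in doxycycline at 1 ug/ml, and the untreated ASCL2 line, also grown for 3 days. Both lines carry the repressor with and without doxycycline, and the WiNTRLINC1 line came from clones picked for knockdown by RT-PCR. No doxycycline-treated cells without a hairpin were analysed here, and effects of the drug and of the hairpin cannot be told apart. The labels disagree about the hairpin: in each of the 8 samples the genotype entry gives the target that the title does not, and groups were taken from the titles. Nothing in the labels says that the 2 libraries of a group came from separate cultures, so the spread between them may be technical. Each p-value and SE rests on that spread, pooled over the 4 groups and drawn toward that of other genes.

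The deposited value of a gene is a scaled read count, given as a whole number. Totals ran from 21524463 to 22941231 per library. ASCL2 itself had 805 and 697 in doxycycline against 2540 and 2034 untreated in the WiNTRLINC1 line, and 532 and 586 in doxycycline against 2855 and 3373 untreated in the ASCL2 line, so it does not settle which label is right. Summed over 11 colon epithelial markers the value was between 119486 and 236066 per library. Summed fibroblast markers reached at most 304, immune markers 106 and endothelial markers 33. Calls are limma tests on log2(value + 1), fitted over all tested genes, whose p after Benjamini-Hochberg adjustment was under 0.05. Each library is bulk RNA, so fewer expressing cells and less RNA per cell cannot be told apart.

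The protein p53 is a transcription factor that is held low by the ubiquitin ligase MDM2 and its partner MDM4. Stress signals block that degradation, and p53 then binds DNA as a tetramer and switches on genes that stop the cell cycle, kill the cell or repair DNA. Several targets, MDM2 among them, feed back on p53 itself. In the intestine this response is best known from crypt cells after irradiation. Repression by p53 is mostly indirect: the kinase inhibitor CDKN1A lets the DREAM complex assemble on cell cycle genes.

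The DNA element that p53 reads is a pair of copies of a decamer, the p53 half-site, set close together. The decamer consensus is its own reverse complement, so a search of 1 strand covers both. RefSeq start-site windows on GRCh38.p14, from 250 bases before to 50 bases after the start, matched 26 of the 33 members. No window was matched for FBXO22, GADD45A, PHLDA3, RRM2B, TNFRSF10A, TNFRSF10B and TP53INP1. A match to the p53 half-site occurred in 7 of these 26 members (26.9%), against 2202 of all 27305 genes with a window (8.06%). The match read GGGCTTGCCC in AEN, 34 bases before the start, and the same GGGCTTGCCC in FDXR, 11 bases before it. In SESN1 it read GGACAAGTCT, 49 bases before the start. A pair of matches at most 13 bases apart occurred in 1 member, DDB2, and in 10 genes (0.0366%) of all. The windows of CDKN1A, MDM2, BAX and BBC3 held no match to these letters. Sequence outside the windows was not searched, so a p53 element elsewhere in these genes would not be seen. Shown here are DDB2, with its pair, and the 3 members with a match that were higher with doxycycline in both lines, FAS, PLK2 and RPS27L. Each sequence runs 5′ to 3′ on the strand of the gene, from 250 bases before the start to 30 bases after it, with the matches to the p53 half-site in capitals. The coordinates are DDB2 chr11:47214724-47215003 (plus strand), FAS chr10:88991181-88991460 (plus strand), PLK2 chr5:58460057-58460336 (minus strand) and RPS27L chr15:63157448-63157727 (minus strand).
DDB2: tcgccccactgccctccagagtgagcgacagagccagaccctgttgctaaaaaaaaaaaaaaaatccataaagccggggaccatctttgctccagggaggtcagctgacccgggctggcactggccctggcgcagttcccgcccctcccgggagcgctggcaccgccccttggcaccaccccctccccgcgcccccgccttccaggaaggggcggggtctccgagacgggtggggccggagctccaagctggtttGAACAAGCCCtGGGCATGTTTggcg
FAS: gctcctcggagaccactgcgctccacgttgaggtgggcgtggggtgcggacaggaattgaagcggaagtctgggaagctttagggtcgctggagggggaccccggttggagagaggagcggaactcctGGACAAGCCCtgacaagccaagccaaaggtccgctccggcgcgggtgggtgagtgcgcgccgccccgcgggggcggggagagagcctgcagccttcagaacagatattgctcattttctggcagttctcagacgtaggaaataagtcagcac
PLK2: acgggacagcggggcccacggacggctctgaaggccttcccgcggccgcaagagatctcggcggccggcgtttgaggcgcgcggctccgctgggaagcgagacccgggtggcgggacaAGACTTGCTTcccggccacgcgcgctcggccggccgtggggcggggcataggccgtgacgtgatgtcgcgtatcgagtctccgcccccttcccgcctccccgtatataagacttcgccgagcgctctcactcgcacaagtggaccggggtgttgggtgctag
RPS27L: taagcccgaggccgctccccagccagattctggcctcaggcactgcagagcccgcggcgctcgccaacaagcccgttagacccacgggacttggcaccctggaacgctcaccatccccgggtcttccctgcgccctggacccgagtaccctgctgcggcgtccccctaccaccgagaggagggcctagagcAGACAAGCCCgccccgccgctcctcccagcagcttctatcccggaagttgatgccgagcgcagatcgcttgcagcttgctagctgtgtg

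**Figure D1:**
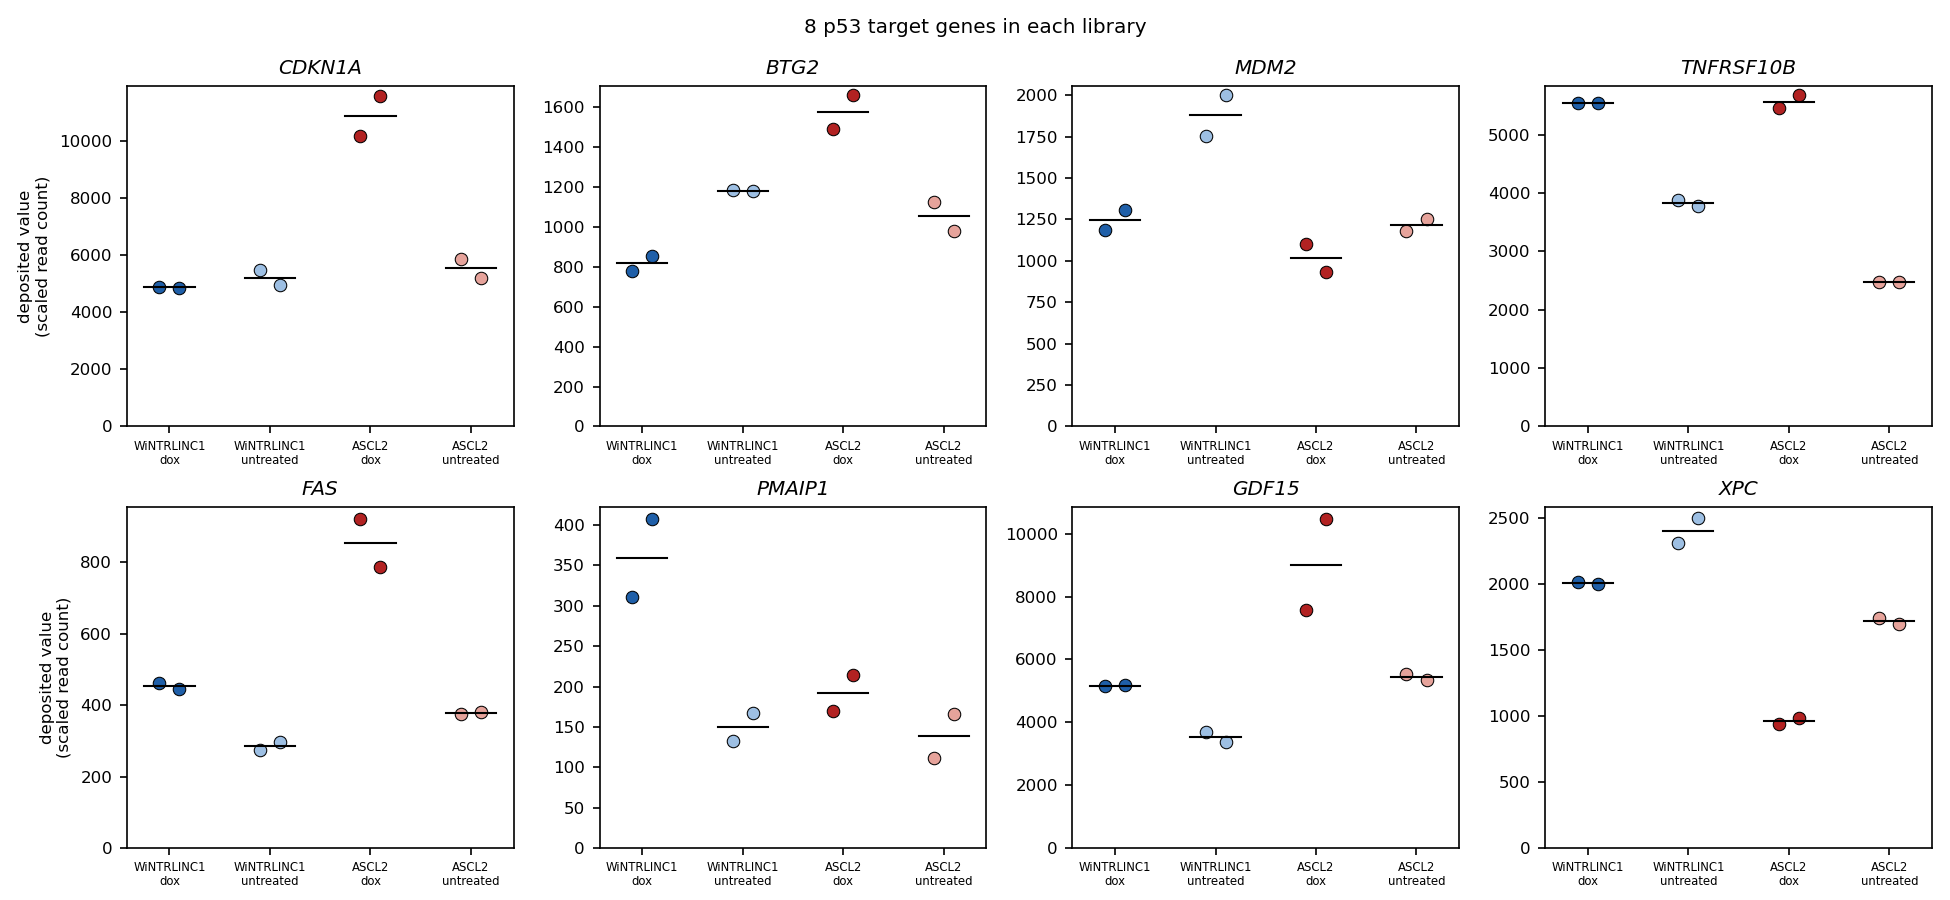
Deposited value (scaled read count, linear axis from 0) of 8 p53 target genes in each of the 8 libraries. Points are libraries and bars are group means of 2. TNFRSF10B is higher with doxycycline in both lines and CDKN1A stands at 10163 and 11586 in the doxycycline libraries of the ASCL2 line and at 5866 or less in the other libraries.

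In the WiNTRLINC1 line 17 of the 33 target genes were called, 11 higher (33.3%) and 6 lower (18.2%) with doxycycline. Among all tested genes 18.6% were called, 9.54% higher and 9.03% lower. Among tested genes whose mean was 100 or more the share was 28.2%, with 14.8% higher and 13.4% lower. The median log2 fold change of the members was 0.12, against 0.01 over all tested genes. The ASCL2 line had 20 members called, 16 higher (48.5%) and 4 lower (12.1%), against 26.6% of all tested genes, 13.9% higher and 12.7% lower. Among tested genes whose mean was 100 or more the share there was 39.3%, with 21.3% higher and 18% lower. The median of the members was 0.26 in the ASCL2 line, against 0.01 over all tested genes. Without the ASCL2 line's second doxycycline library, 13 members were called, 11 higher and 2 lower, against 16.6% of all tested genes, 7.89% higher and 8.68% lower. Among tested genes whose mean was 100 or more that fit called 25.2%, 12.5% higher and 12.7% lower. Of the members 32 had such a mean.

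Read together, 9 members rose in both lines: FAS, GADD45A, GDF15, PLK2, PLK3, RPS27L, TIGAR, TNFRSF10B and TRIAP1. They make up 81.8% of the members that rose in the WiNTRLINC1 line and 56.2% of those that rose in the ASCL2 line. Only FAS and TNFRSF10B of them kept the call in both lines in all alternative fits. Over all tested genes 4.19% rose in both lines. That is 43.9% of the genes that rose in the WiNTRLINC1 line and 30.1% of those that rose in the ASCL2 line. Among tested genes with a mean of 100 or more, 6.83% rose in both. There the shares were 46.1% of the genes that rose in the WiNTRLINC1 line and 32% for the ASCL2 line. A fall in both lines was found for 2 members, TP53INP1 and XPC, against 2.95% of all tested genes and 4.67% of those with a mean of 100 or more, and 1 member, BTG2, fell in the WiNTRLINC1 line and rose in the ASCL2 line. The call was made in the WiNTRLINC1 line alone for 5 members and in the ASCL2 line alone for 8. A background share for these counts, for opposite calls and for calls in neither line was not computed. None of them is read as particular to the members. Among tested genes with a mean of 100 or more, 28.2% were called in the WiNTRLINC1 line and 39.3% in the ASCL2 line. Of such genes 6.83% rose and 4.67% fell in both lines. Of the members called in 1 line alone only CDKN1A, APAF1 and SPATA18 passed the direct test of a difference between the responses, given below. The other 8, AEN, BBC3, DDB2, POLH, PPM1D, RRM2B, SESN1 and ZMAT3, were called in neither line, with log2 fold changes between -0.18 and 0.22.

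**Figure D2:**
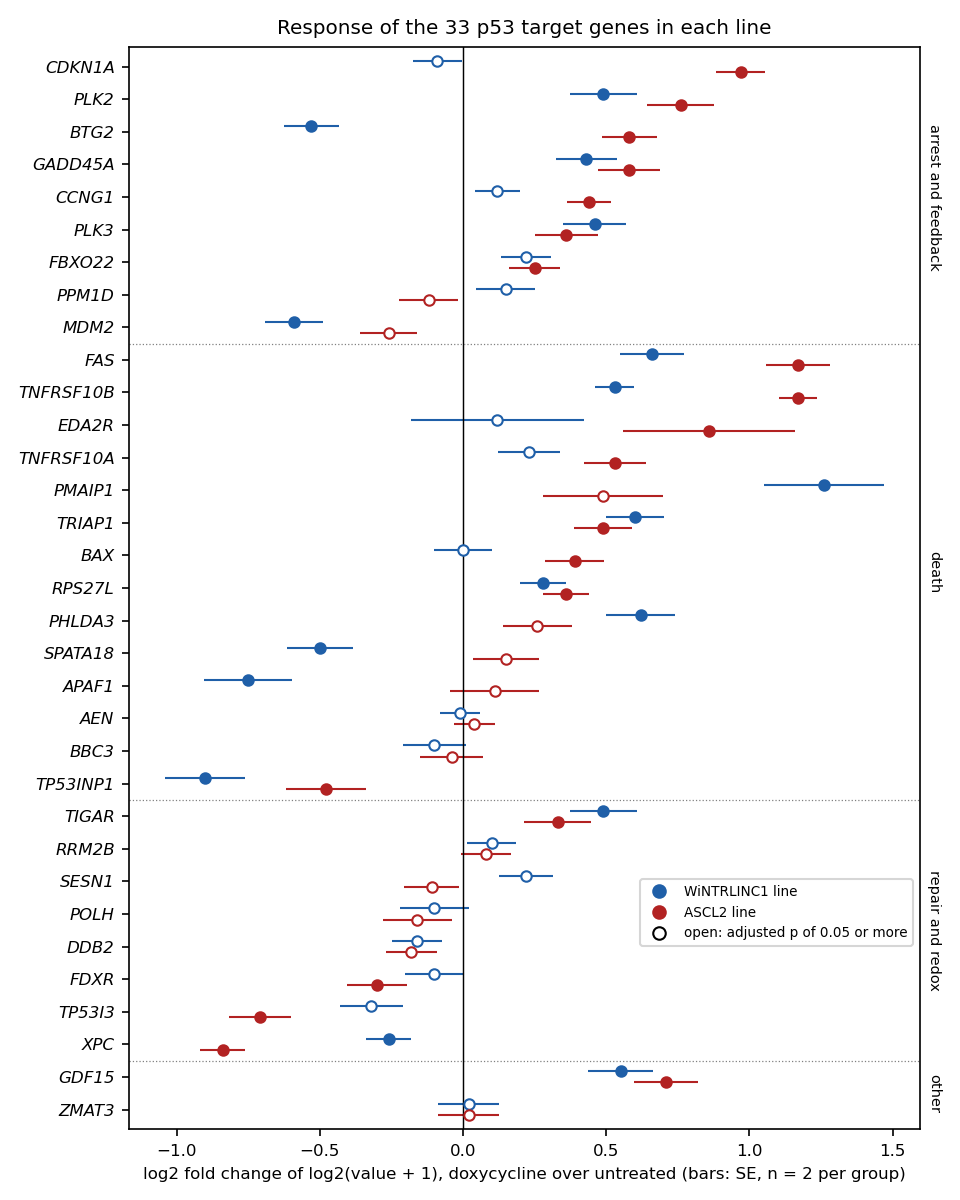
Log2 fold change of log2(value + 1), doxycycline over untreated, of each of the 33 p53 target genes, with the WiNTRLINC1 line in blue above the ASCL2 line in red. Bars are SE (n = 2 libraries per group), filled points have an adjusted p under 0.05, and genes are ordered by class and by the ASCL2 line. CDKN1A and BTG2 lie at -0.09 and -0.53 in the WiNTRLINC1 line and at 0.97 and 0.58 in the ASCL2 line, while FAS and TNFRSF10B are positive in both.

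Among the arrest and feedback genes 3 of 9 rose (33.3%) and 2 fell (22.2%) in the WiNTRLINC1 line, with a median log2 fold change of 0.15, where 14.8% of tested genes with a mean of 100 or more rose and 13.4% fell. The ASCL2 line had 7 of 9 higher (77.8%) and 0 lower, with a median of 0.44, against 21.3% higher and 18% lower among such genes. CDKN1A (ENSG00000124762, chromosome 6) encodes p21, the inhibitor of cyclin-dependent kinases through which p53 stops the cycle. It had 4890 and 4863 with doxycycline in the WiNTRLINC1 line, against 5476 and 4952 untreated. It had 10163 and 11586 with doxycycline against 5866 and 5204 untreated in the ASCL2 line. Both doxycycline libraries of the ASCL2 line stood far above the other 6 libraries, which lay close together. CDKN1A rose 1.96-fold there (log2 fold change 0.97 ± 0.0851 SE, 2 libraries per group, limma, Benjamini-Hochberg adjusted p = 1.22e-06). The WiNTRLINC1 line gave a log2 fold change of -0.09 ± 0.0851 SE (limma, adjusted p = 0.515).

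BTG2 (ENSG00000159388, chromosome 1), an antiproliferative cofactor of mRNA deadenylation, had 779 and 855 with doxycycline in the WiNTRLINC1 line, against 1184 and 1180 untreated. It had 1489 and 1662 with doxycycline against 1127 and 978 untreated in the ASCL2 line. The groups were apart in both lines and in opposite order. BTG2 fell 1.45-fold in the WiNTRLINC1 line (log2 fold change -0.53 ± 0.0962 SE, limma, adjusted p = 0.00116) and rose 1.50-fold in the ASCL2 line (0.58 ± 0.0962 SE, limma, adjusted p = 0.000413).

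The kinase PLK2 and its relative PLK3, polo-like kinases of the stress response, rose in both lines. PLK2 had 548 and 651 with doxycycline against 397 and 454 untreated in the WiNTRLINC1 line, and 764 and 750 with doxycycline against 473 and 421 untreated in the ASCL2 line. The rise of PLK2 on the log2 scale was 0.49 in the WiNTRLINC1 line (limma, adjusted p = 0.00811) and, in the ASCL2 line, 0.76 (limma, adjusted p = 0.00022). PLK3 had 503 and 472 with doxycycline against 367 and 342 untreated in the WiNTRLINC1 line, and 439 and 479 with doxycycline against 360 and 356 untreated in the ASCL2 line. The size of its rise was 0.46 in the WiNTRLINC1 line (limma, adjusted p = 0.00881) and 0.36 in the ASCL2 line (limma, adjusted p = 0.0266). GADD45A, a small stress protein that restrains entry into mitosis, had 499 and 568 with doxycycline against 385 and 406 untreated in the WiNTRLINC1 line (log2 fold change 0.43, limma, adjusted p = 0.0111). GADD45A had 632 and 658 with doxycycline against 442 and 421 untreated in the ASCL2 line (0.58, limma, adjusted p = 0.00098). In all of these pairs both doxycycline libraries lay above both untreated ones. The calls of PLK2 and GADD45A in the WiNTRLINC1 line were lost without its first untreated library (limma, adjusted p = 0.0876 and 0.0735) or without its second doxycycline library (0.115 and 0.125). The call of PLK3 was lost there without the second untreated library (limma, adjusted p = 0.0632) or the first doxycycline library (0.0747), and in the ASCL2 line without any 1 of its 4 libraries (0.0547 to 0.183).

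MDM2 (ENSG00000135679, chromosome 12), the ligase that marks p53 for degradation and is itself a classic p53 target, had 1185 and 1306 with doxycycline in the WiNTRLINC1 line, against 1755 and 2002 untreated. It fell 1.51-fold (log2 fold change -0.59 ± 0.100 SE, limma, adjusted p = 0.000708). MDM2 had 1100 and 935 with doxycycline against 1179 and 1253 untreated in the ASCL2 line, and the change of -0.26 ± 0.100 SE did not pass (limma, adjusted p = 0.0689). It passed there with quantile normalization (limma, adjusted p = 0.0376), with voom weights (0.0374) and without the first doxycycline library of the ASCL2 line (0.0411), and over all alternatives its log2 fold change ran from -0.38 to -0.14. In neither line did MDM2 lie on the same side as GADD45A and the PLK genes.

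CCNG1, a cyclin that works with a phosphatase on MDM2, had 5433 and 5351 with doxycycline against 4820 and 5107 untreated in the WiNTRLINC1 line and did not pass (log2 fold change 0.12, limma, adjusted p = 0.338). CCNG1 had 6417 and 5732 with doxycycline against 4272 and 4682 untreated in the ASCL2 line and rose 1.36-fold (limma, adjusted p = 0.000732). FBXO22, the substrate receptor of a ubiquitin ligase, had 1392 and 1357 with doxycycline against 1242 and 1116 untreated in the WiNTRLINC1 line (0.22, limma, adjusted p = 0.0996), and 896 and 871 with doxycycline against 716 and 766 untreated in the ASCL2 line (0.25, limma, adjusted p = 0.0464). That call was lost when any 1 of the 4 libraries of the ASCL2 line was left out (limma, adjusted p from 0.063 to 0.204). PPM1D, the phosphatase WIP1 that switches p53 signalling off again, had 633 and 595 with doxycycline against 524 and 582 untreated in the WiNTRLINC1 line. It had 418 and 429 with doxycycline against 462 and 457 untreated in the ASCL2 line, and did not pass in either (log2 fold changes 0.15 and -0.12).

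Among the death genes 6 of 14 rose (42.9%) and 3 fell (21.4%) in the WiNTRLINC1 line, with a median log2 fold change of 0.18, against 14.8% and 13.4% of tested genes with a mean of 100 or more. The ASCL2 line had 7 of 14 higher (50%) and 1 lower (7.14%), with a median of 0.38, against 21.3% and 18% of such genes. The death receptors of the cell surface are given first. FAS (ENSG00000026103, chromosome 10), the receptor of FAS ligand, had 461 and 444 with doxycycline in the WiNTRLINC1 line, against 274 and 297 untreated. It had 921 and 787 with doxycycline against 376 and 382 untreated in the ASCL2 line. Both doxycycline libraries lay above both untreated ones in each line. FAS rose 1.58-fold in the WiNTRLINC1 line (log2 fold change 0.66 ± 0.112 SE, limma, adjusted p = 0.000708) and 2.24-fold in the ASCL2 line (1.17 ± 0.112 SE, limma, adjusted p = 3.12e-06). Its start-site window, printed above, is one of the 7 with a p53 half-site, and 8.93% of its exon bases overlap ACTA2 on the other strand.

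TNFRSF10B (ENSG00000120889, chromosome 8) encodes a receptor of the death ligand TRAIL. It had 5539 and 5542 with doxycycline in the WiNTRLINC1 line, against 3883 and 3777 untreated. It had 5462 and 5677 with doxycycline against 2479 and 2468 untreated in the ASCL2 line. The 4 doxycycline libraries were almost level, and the untreated lines were not. TNFRSF10B rose 1.45-fold in the WiNTRLINC1 line (log2 fold change 0.53 ± 0.0678 SE, limma, adjusted p = 5.86e-05) and 2.25-fold in the ASCL2 line (1.17 ± 0.0678 SE, limma, adjusted p = 2.53e-08).

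TNFRSF10A, the other TRAIL receptor that signals death, had 837 and 784 with doxycycline against 739 and 643 untreated in the WiNTRLINC1 line and did not pass (log2 fold change 0.23, limma, adjusted p = 0.162). TNFRSF10A had 972 and 899 with doxycycline against 704 and 598 untreated in the ASCL2 line and rose 1.44-fold (limma, adjusted p = 0.00213). Close copies of these receptors exist in the same gene cluster, and how reads shared between them were counted is not given in the sources used here. EDA2R, the X-linked receptor of an ectodysplasin isoform, had 211 and 170 with doxycycline against 160 and 189 untreated in the WiNTRLINC1 line, where the groups overlapped. It was barely expressed in the ASCL2 line, with 18 and 24 with doxycycline against 8 and 15 untreated (log2 fold change 0.86 ± 0.301 SE, limma, adjusted p = 0.0471). That call was lost without the first untreated library (limma, adjusted p = 0.332), the first doxycycline library (0.0601) or the second doxycycline library (0.25) of that line, and in 12 of 19 alternatives in all.

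The mitochondrial arm of the death response was uneven. PMAIP1 (ENSG00000141682, chromosome 18), the BH3-only protein NOXA, had 311 and 407 with doxycycline in the WiNTRLINC1 line, against 132 and 167 untreated. It rose 2.39-fold (log2 fold change 1.26 ± 0.209 SE, limma, adjusted p = 0.000608), the largest change of any member in that line. PMAIP1 had 170 and 214 with doxycycline against 111 and 166 untreated in the ASCL2 line and did not pass (0.49 ± 0.209 SE, limma, adjusted p = 0.102). With the replicate number as a block it passed there (limma, adjusted p = 0.0245). BBC3, the BH3-only protein PUMA, had 504 and 571 with doxycycline against 582 and 572 untreated in the WiNTRLINC1 line, and 649 and 779 with doxycycline against 740 and 725 untreated in the ASCL2 line. Its log2 fold changes were -0.10 and -0.04, and neither passed. BAX, which forms the pore in the mitochondrial outer membrane, had 1093 and 1058 with doxycycline against 1113 and 1043 untreated in the WiNTRLINC1 line, where the groups overlapped. BAX had 1059 and 1093 with doxycycline against 912 and 736 untreated in the ASCL2 line and rose 1.31-fold (limma, adjusted p = 0.0101). Without the second untreated library (limma, adjusted p = 0.126) or the second doxycycline library (0.0776) that call was lost. APAF1 (ENSG00000120868, chromosome 12), the scaffold of the apoptosome, had 302 and 203 with doxycycline against 430 and 406 untreated in the WiNTRLINC1 line and fell 1.68-fold (log2 fold change -0.75, limma, adjusted p = 0.0031). The change was -1.04 without the first and -0.47 without the second doxycycline library of that line, and the call was lost with no filter, with no mean-variance trend and with the line fitted alone (limma, adjusted p from 0.059 to 0.0695). APAF1 had 405 and 392 with doxycycline against 372 and 366 untreated in the ASCL2 line (log2 fold change 0.11, limma, adjusted p = 0.652).

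The remaining death and survival genes also split. TRIAP1, a mitochondrial protein that restrains apoptosis, had 1736 and 1882 with doxycycline against 1115 and 1273 untreated in the WiNTRLINC1 line (log2 fold change 0.60, limma, adjusted p = 0.000673) and 1618 and 1733 with doxycycline against 1303 and 1083 untreated in the ASCL2 line (0.49, limma, adjusted p = 0.00212). RPS27L, a close relative of the ribosomal protein RPS27, had 1323 and 1421 with doxycycline against 1143 and 1108 untreated in the WiNTRLINC1 line (0.28, limma, adjusted p = 0.0221). It had 2323 and 2214 with doxycycline against 1708 and 1823 untreated in the ASCL2 line (0.36, limma, adjusted p = 0.00378). Both genes had their doxycycline libraries above the untreated ones in each line. With no mean-variance trend TRIAP1 was not called in the WiNTRLINC1 line (limma, adjusted p = 0.0514) or the ASCL2 line (0.0584). RPS27L was no longer called in the WiNTRLINC1 line without the first untreated (limma, adjusted p = 0.0617), the second untreated (0.102) or the second doxycycline library (0.174). PHLDA3, which keeps the kinase AKT off the membrane, had 642 and 632 with doxycycline against 461 and 373 untreated in the WiNTRLINC1 line and rose 1.53-fold (limma, adjusted p = 0.00191). PHLDA3 had 596 and 690 with doxycycline against 549 and 520 untreated in the ASCL2 line (0.26, limma, adjusted p = 0.121).

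TP53INP1, a stress protein that helps p53 phosphorylation and autophagy, went the other way. It had 283 and 275 with doxycycline against 479 and 566 untreated in the WiNTRLINC1 line and fell 1.86-fold (log2 fold change -0.90 ± 0.140 SE, limma, adjusted p = 0.000345). TP53INP1 had 269 and 255 with doxycycline against 320 and 415 untreated in the ASCL2 line and fell 1.39-fold (-0.48 ± 0.140 SE, limma, adjusted p = 0.0204). The call in the ASCL2 line was lost without its second untreated library (limma, adjusted p = 0.212), its first doxycycline library (0.0664) or its second doxycycline library (0.121). SPATA18, a protein of mitochondrial quality control also known as Mieap, had 269 and 278 with doxycycline against 392 and 383 untreated in the WiNTRLINC1 line and fell 1.42-fold (limma, adjusted p = 0.00696). SPATA18 had 366 and 406 with doxycycline against 339 and 356 untreated in the ASCL2 line (0.15, limma, adjusted p = 0.384). AEN, an apoptosis-enhancing nuclease, had 4259 and 4332 with doxycycline against 4307 and 4321 untreated in the WiNTRLINC1 line, and 2442 and 2348 with doxycycline against 2403 and 2266 untreated in the ASCL2 line. Its log2 fold changes were -0.01 and 0.04.

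Among the repair and redox genes 1 of 8 rose and 1 fell in the WiNTRLINC1 line (12.5% each), with a median log2 fold change of -0.10. These shares were near the 14.8% and 13.4% of tested genes with a mean of 100 or more. The ASCL2 line had 1 higher (12.5%) and 3 lower (37.5%), with a median of -0.17, against 21.3% and 18% of such genes. XPC (ENSG00000154767, chromosome 3), the sensor that starts nucleotide excision repair, had 2017 and 2002 with doxycycline in the WiNTRLINC1 line, against 2310 and 2503 untreated. It had 942 and 984 with doxycycline against 1743 and 1698 untreated in the ASCL2 line. All doxycycline libraries lay below the untreated ones of their line. XPC fell 1.20-fold in the WiNTRLINC1 line (log2 fold change -0.26 ± 0.0780 SE, limma, adjusted p = 0.031) and 1.79-fold in the ASCL2 line (-0.84 ± 0.0780 SE, limma, adjusted p = 2.22e-06). Its call was lost in the WiNTRLINC1 line without the second untreated (limma, adjusted p = 0.187), the first doxycycline (0.114) or the second doxycycline library (0.14). Other genes on the opposite strand, LSM3 among them, cover 39% of the exon bases of XPC, and reads of the 2 strands cannot be told apart if strand was not used in counting.

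TP53I3 (ENSG00000115129, chromosome 2), a quinone oxidoreductase also known as PIG3, had 327 and 285 with doxycycline against 363 and 399 untreated in the WiNTRLINC1 line, a log2 fold change of -0.32 ± 0.109 SE that missed the threshold (limma, adjusted p = 0.0561). It had 655 and 664 with doxycycline against 1129 and 1034 untreated in the ASCL2 line and fell 1.64-fold (-0.71 ± 0.109 SE, limma, adjusted p = 0.000213). FDXR, the mitochondrial reductase that passes electrons to ferredoxin, had 1169 and 1131 with doxycycline against 1333 and 1146 untreated in the WiNTRLINC1 line, where the groups overlapped. FDXR had 683 and 592 with doxycycline against 821 and 745 untreated in the ASCL2 line (-0.30, limma, adjusted p = 0.0461). That call was lost without the first untreated (limma, adjusted p = 0.236), the second untreated (0.0571) or the second doxycycline library (0.33). TIGAR, a phosphatase that lowers glycolytic flux, was the member of this class that rose. It had 626 and 604 with doxycycline against 400 and 480 untreated in the WiNTRLINC1 line (0.49, limma, adjusted p = 0.00814) and 488 and 498 with doxycycline against 370 and 416 untreated in the ASCL2 line (0.33, limma, adjusted p = 0.0485). Without the first untreated (limma, adjusted p = 0.0967) or first doxycycline library (0.063) of the WiNTRLINC1 line, or any 1 library of the ASCL2 line (0.0525 to 0.246), the call in that line was lost. Other annotated genes on the same strand cover 42.6% of the exon bases of TIGAR.

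DDB2, the damage-binding partner of XPC and the member with the paired p53 half-sites, had 955 and 907 with doxycycline against 1042 and 1034 untreated in the WiNTRLINC1 line (log2 fold change -0.16, limma, adjusted p = 0.254). It had 905 and 894 with doxycycline against 967 and 1072 untreated in the ASCL2 line (-0.18, limma, adjusted p = 0.156). Its doxycycline libraries lay below the untreated ones in both lines, yet neither change passed. POLH, the translesion polymerase eta, had 867 and 800 with doxycycline against 857 and 928 untreated in the WiNTRLINC1 line, and 501 and 394 with doxycycline against 466 and 530 untreated in the ASCL2 line. RRM2B, the p53-inducible subunit of ribonucleotide reductase, had 1134 and 1222 with doxycycline against 1060 and 1139 untreated in the WiNTRLINC1 line, and 1232 and 1147 with doxycycline against 1115 and 1140 untreated in the ASCL2 line. SESN1, a sestrin that restrains mTORC1, had 833 and 852 with doxycycline against 733 and 710 untreated in the WiNTRLINC1 line, and 450 and 480 with doxycycline against 503 and 503 untreated in the ASCL2 line. None of these 3 passed in either line, with log2 fold changes between -0.16 and 0.22.

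GDF15 (ENSG00000130513, chromosome 19), a secreted cytokine of the TGF-beta superfamily that marks cell stress, had 5139 and 5178 with doxycycline in the WiNTRLINC1 line, against 3687 and 3384 untreated. It had 7557 and 10479 with doxycycline against 5524 and 5345 untreated in the ASCL2 line. The groups did not overlap, and the 2 doxycycline libraries of the ASCL2 line were far apart. GDF15 rose 1.46-fold in the WiNTRLINC1 line (log2 fold change 0.55 ± 0.112 SE, limma, adjusted p = 0.00314) and 1.64-fold in the ASCL2 line (0.71 ± 0.112 SE, limma, adjusted p = 0.000281). ZMAT3, an RNA-binding protein, had 876 and 964 with doxycycline against 822 and 1004 untreated in the WiNTRLINC1 line, and 841 and 773 with doxycycline against 783 and 803 untreated in the ASCL2 line, with overlap in both. Per kilobase of exon, the highest mean levels in the untreated ASCL2 line were those of GDF15 (2600), CDKN1A (1810) and CCNG1 (1450), and the lowest were those of EDA2R (3.21) and APAF1 (46.7).

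The difference between the 2 responses was tested directly, as the response of the WiNTRLINC1 line minus that of the ASCL2 line. It passed for 7 members, 6 of them lower and 1 higher in the WiNTRLINC1 line, against 15% of all tested genes, 7.6% lower and 7.39% higher. Among tested genes whose mean was 100 or more it passed for 23%, 11.7% lower and 11.3% higher, so the count of members was near the background. BTG2 had the largest difference, -1.12 ± 0.136 SE on the log2 scale (limma, adjusted p = 5.52e-05), followed by CDKN1A with -1.07 ± 0.120 SE (limma, adjusted p = 2.76e-05). For BTG2 the responses had opposite signs, and for CDKN1A the response passed in the ASCL2 line. APAF1 differed by -0.86 ± 0.218 SE (limma, adjusted p = 0.014) and SPATA18 by -0.65 ± 0.164 SE (limma, adjusted p = 0.0137), both with a fall in the WiNTRLINC1 line. The death receptors TNFRSF10B, with -0.64 ± 0.0958 SE (limma, adjusted p = 0.000335), and FAS, with -0.50 ± 0.159 SE (limma, adjusted p = 0.0461), rose in both lines and less in the WiNTRLINC1 line. XPC differed by 0.58 ± 0.110 SE (limma, adjusted p = 0.00219), with the smaller fall in the WiNTRLINC1 line.

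The difference for FAS was not called when any 1 of 7 of the 8 libraries was left out (limma, adjusted p from 0.0556 to 0.204). That of APAF1 was lost without the first doxycycline library of the ASCL2 line (limma, adjusted p = 0.0589) or without the first untreated (0.058) or second doxycycline library (0.0541) of the WiNTRLINC1 line. SPATA18 lost it without the ASCL2 line's second doxycycline library (limma, adjusted p = 0.0732). The difference of PMAIP1, 0.77 ± 0.295 SE with the larger rise in the WiNTRLINC1 line, did not pass (limma, adjusted p = 0.1), and passed with the replicate number as a block (0.0221).

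The untreated lines differed in many of these genes before doxycycline was added. Of the 33 members 18 were called, 12 higher and 6 lower in the untreated WiNTRLINC1 line, against 55.2% of all tested genes, 25.7% higher and 29.5% lower. Among tested genes whose mean was 100 or more 66.9% were called, 31.3% higher and 35.6% lower, so the share of members called was no larger than the background. EDA2R had 160 and 189 in the untreated WiNTRLINC1 line, against 8 and 15 in the untreated ASCL2 line. This 14.6-fold gap (log2 fold change 3.87 ± 0.301 SE, limma, adjusted p = 6e-08) was the widest of any member. TP53I3 had 363 and 399 in the untreated WiNTRLINC1 line, against 1129 and 1034 in the untreated ASCL2 line, and was 2.83-fold lower (-1.50 ± 0.109 SE, limma, adjusted p = 2.64e-08). AEN was higher by 0.89, POLH by 0.84, FBXO22 by 0.67, FDXR by 0.66, TNFRSF10B by 0.63 and MDM2 by 0.62 on the log2 scale in the untreated WiNTRLINC1 line (limma, adjusted p at most 8.98e-05). RPS27L was lower by 0.65, GDF15 by 0.62 and FAS by 0.41 there. CDKN1A had 5476 and 4952 in the untreated WiNTRLINC1 line, against 5866 and 5204 in the untreated ASCL2 line. CDKN1A overlapped between the untreated lines. The call of PPM1D was lost in 7 of 8 fits that left out 1 library (limma, adjusted p from 0.0502 to 0.224). BAX lost its call without the second untreated library of the ASCL2 line (limma, adjusted p = 0.0687). BBC3 (0.0643 and 0.0646), PHLDA3 (0.192 and 0.0878) and TP53INP1 (0.0755 and 0.0897) lost theirs in limma without the second untreated library of the WiNTRLINC1 line or without the ASCL2 line's first untreated library.

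**Figure D3:**
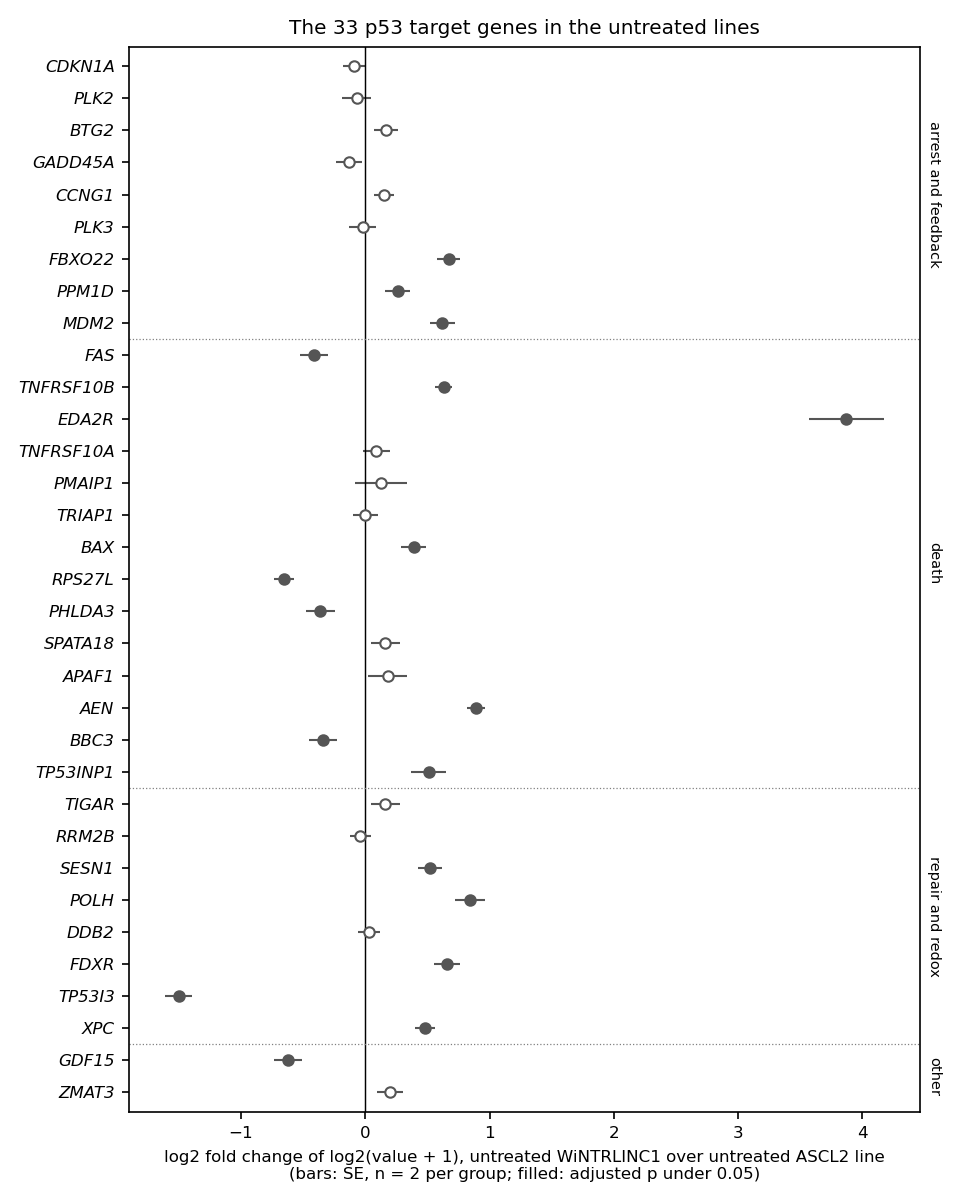
Log2 fold change of log2(value + 1), untreated WiNTRLINC1 line over untreated ASCL2 line, of each of the 33 p53 target genes. Bars are SE (n = 2 libraries per group) and filled points have an adjusted p under 0.05. EDA2R at 3.87 and TP53I3 at -1.50 lie farthest from 0.

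Further genes around p53 were counted from lists that are not members. Of 23 regulators and relatives of p53 22 were tested. In the WiNTRLINC1 line 0 rose and 3 fell (HIPK2, TP73 and DAXX, median log2 fold change -0.09), and in the ASCL2 line 0 rose and 9 fell (median -0.19). Those lower in the ASCL2 line were ATR, CHEK1, CHEK2, CREBBP, DAXX, HIPK2, MDM4, RPL5 and TP53BP1. The 13.6% that fell in the WiNTRLINC1 line were near the 13.4% of tested genes with a mean of 100 or more, and the 40.9% in the ASCL2 line stand against 18%. HIPK2, a kinase that phosphorylates p53, fell by 0.76 in the WiNTRLINC1 line, and TP73, a p53 relative, by 1.06. DAXX fell by 0.61 in the WiNTRLINC1 line, and the checkpoint kinase ATR had a log2 fold change of 0.25 there that did not pass (limma, adjusted p = 0.0606). In the ASCL2 line HIPK2, DAXX and ATR had log2 fold changes of -0.42, -0.49 and -0.34 (limma, adjusted p at most 0.00956). TP73 did not pass there (-0.16, limma, adjusted p = 0.429). The difference of responses of ATR was 0.60 (limma, adjusted p = 0.00433). The call of ATR changed in 3 of 19 alternatives in each line. CHEK1, another checkpoint kinase, fell by 0.92 in the ASCL2 line, and TP53BP1, a DNA break adaptor, by 0.58. The ribosomal protein gene RPL5 fell by 0.49 in the ASCL2 line and the acetyltransferase gene CREBBP by 0.45. CHEK1, TP53BP1, RPL5 and CREBBP did not pass in the WiNTRLINC1 line (log2 fold changes from -0.21 to -0.08). MDM4, the partner of MDM2 in holding p53 down, had 726 and 782 with doxycycline against 758 and 866 untreated in the WiNTRLINC1 line, where the groups overlapped. It had 285 and 281 with doxycycline against 368 and 462 untreated in the ASCL2 line, and fell by 0.54 on the log2 scale (limma, adjusted p = 0.00409). Without the second untreated library of that line MDM4 was no longer called (limma, adjusted p = 0.059).

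Of 60 further p53 targets 55 were tested. In the WiNTRLINC1 line 14 rose and 5 fell (median log2 fold change 0.09), and in the ASCL2 line 12 rose and 7 fell (median 0.02). The shares were 25.5% higher and 9.09% lower in the WiNTRLINC1 line, against 14.8% and 13.4% of tested genes with a mean of 100 or more. In the ASCL2 line they were 21.8% and 12.7%, against 21.3% and 18%, so the share that rose there was near the background. TNFRSF10D, a TRAIL receptor that does not signal death, had 2672 and 2798 with doxycycline against 928 and 900 untreated in the WiNTRLINC1 line (1.58, limma, adjusted p = 1.97e-07). TNFRSF10D had 935 and 843 with doxycycline against 640 and 501 untreated in the ASCL2 line (0.65, limma, adjusted p = 0.000466). CMBL, a hydrolase, rose by 0.70 in the WiNTRLINC1 line and by 0.83 in the ASCL2 line. PGF, a growth factor with low values, rose by 2.45 in the WiNTRLINC1 line and the inositol phosphatase INPP1 by 0.61. INPP1 also rose in the ASCL2 line (0.45), where PGF did not pass (-0.23). In the ASCL2 line the EGF receptor ligand TGFA rose by 1.23 and the phosphatase PTP4A1 by 0.60, while COBLL1 fell by 1.41. TGFA and PTP4A1 also rose in the WiNTRLINC1 line (0.84 and 0.47), where COBLL1 did not pass (-0.10). The difference of responses passed for PGF and COBLL1 and not for TGFA, PTP4A1 or INPP1 (limma, adjusted p from 0.149 to 0.474). Another annotated gene on the same strand covers 79% of the exon bases of PTP4A1.

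The 16 cell cycle genes that p53 represses through CDKN1A and the DREAM complex were all tested. In the WiNTRLINC1 line 6 fell and 1 rose (median log2 fold change -0.24), and in the ASCL2 line 15 fell and 0 rose (median -0.63). The shares that fell were 37.5% in the WiNTRLINC1 line and 93.8% in the ASCL2 line, against 13.4% and 18% of tested genes with a mean of 100 or more. The mitotic transcription factor FOXM1 fell by 0.52 in the WiNTRLINC1 line, the mitotic activator CDC20 by 0.45 and the replication helicase subunit MCM5 by 0.52. BIRC5, the survival protein survivin, rose by 0.44 there (limma, adjusted p = 0.00154). That call was lost with no mean-variance trend (limma, adjusted p = 0.0593). In the ASCL2 line BIRC5 fell, with a log2 fold change of -0.68 (limma, adjusted p = 2.9e-05). The difference of its responses was 1.12 (limma, adjusted p = 1.45e-05). In the ASCL2 line CDC20 fell by 0.75, FOXM1 by 0.72, the kinase PLK1 by 0.69 and cyclin CCNB1 by 0.66. A link of these falls to the level of CDKN1A was not tested.

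**Figure D4:**
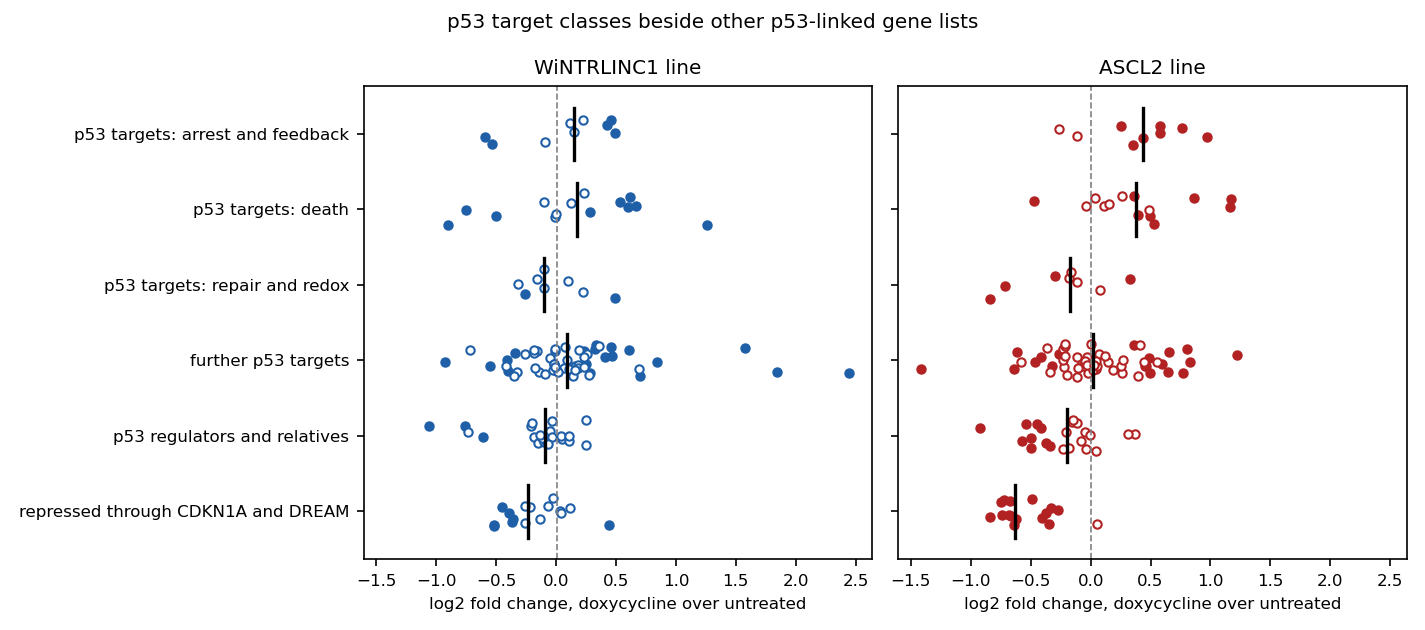
Log2 fold change, doxycycline over untreated, of the tested genes of each p53 target class and of the other p53-linked lists, with the WiNTRLINC1 line on the left and the ASCL2 line on the right. Points are genes, filled where the adjusted p is under 0.05, black bars are list medians and the dashed line is the median of all tested genes. In the ASCL2 line the medians run from 0.44 for the arrest genes to -0.63 for the genes repressed through CDKN1A and DREAM.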

How the data were processed

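RNA was sequenced on the Ion Proton in 8 libraries of 4 groups, 2 libraries each, per the labels' protocols. The submitters' processing notes name TopHat2 2.0.9, cutadapt, DESeq and Cufflinks, with the builds GRCh37, hg19 and mm9 and no role for any. Which program counted reads, and whether it used strand, is not given in the sources used here.

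Each gene's deposited score is a whole number scaled by the authors: in 3 libraries 10 to 16 whole numbers under 100 were used by no gene, as multiplying and rounding counts gives. Scaled totals (21524463 to 22941231) are not depths, so no counting interval is given. Precision rests on 2 libraries per group and on the spread borrowed from other genes. Replicate pairs differed (chi-square per degree of freedom 5.06 to 7.26), and none was a repeat. Of 57736 identifiers 51959 had a symbol; the rest held 1.13% of the values.

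The test was limma 3.58.1 (R 4.3.3) with a trended prior on log2(value + 1), over 4 groups, for the 22100 genes with at least 10 in at least 2 libraries, with Benjamini-Hochberg adjustment over all of them. Such fold changes understate those of low genes. Residual degrees of freedom were 4 and prior ones 10.5, and the script was tested on simulated data. Comparisons were doxycycline against untreated within a line, the difference between both responses, and the untreated lines. Exon overlaps are from GENCODE, promoters from RefSeq.

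Named are every member by class, MDM4, ASCL2 and, per other list and line, the 4 genes with the smallest adjusted p; the motif search and FAS, PLK2, RPS27L and DDB2 were chosen for display after their values were seen. The members and lists were chosen with earlier results of these data known. 1 gene of the lists is not reported here. PECAM1 and DUSP14 had no row by identifier. Same-numbered replicates are not stated to be paired. Alternatives were another pseudocount, filter, scaling, weighting, single-line fits, a replicate block and leaving out each library.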

Additional observations from a re-analysis of the deposited data

Results flagged for a closer look

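The response to doxycycline differed between the lines, by limma's test of the difference itself with Benjamini-Hochberg adjustment, for 7 members. That count is near the background: the difference passed for 15% of all tested genes and for 23% of those with a mean value of 100 or more. Values are the log2 response of the WiNTRLINC1 line minus that of the ASCL2 line. The difference was -1.12 for BTG2, whose responses had opposite signs, and -1.07 for CDKN1A. It was -0.86 for APAF1, -0.65 for SPATA18, -0.64 for TNFRSF10B and -0.50 for FAS, whose call changed in 13 of 18 alternatives. For XPC the difference was 0.58.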

How the results depend on the processing

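Every call of a member kept its direction under all alternatives. In the WiNTRLINC1 line 7 of 17 member calls held in all 19 alternatives (BTG2, FAS, MDM2, PMAIP1, SPATA18, TNFRSF10B and TP53INP1), and in the ASCL2 line 12 of 20 (BTG2, CCNG1, CDKN1A, FAS, GADD45A, GDF15, PLK2, RPS27L, TNFRSF10A, TNFRSF10B, TP53I3 and XPC). Of the differences 3 of 7 held in all 18 (BTG2, CDKN1A and TNFRSF10B), and of the calls between untreated lines 12 of 18.

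Without a filter 43363 genes were tested. Called were 11 members in the WiNTRLINC1 line (2395 genes in all), 14 in the ASCL2 line (3926) and 5 for the difference (1914). Without the mean-variance trend 8 members were called in the WiNTRLINC1 line (1873 genes in all), 12 in the ASCL2 line (3410) and 4 for the difference (1313). The WiNTRLINC1 line fitted alone gave 2713 genes in all. Leaving out 1 library at a time gave 13 to 17 members (2393 to 4126 genes) in the WiNTRLINC1 line, 13 to 19 (3662 to 5824) in the ASCL2 line, 5 to 8 (2316 to 2891) for the difference and 14 to 19 (10455 to 12016) between untreated lines. A library left alone in its group was assumed to vary like the other groups. The causes were not tested.

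With the replicate number as a block 17 members (4182 of 22100 genes in all) were called in the WiNTRLINC1 line and 21 (5962) in the ASCL2 line. For the difference 7 members (3403 genes) were called, and between untreated lines 18 (12261). The block added PMAIP1 in the ASCL2 line and its difference, and lost the difference of FAS (limma, adjusted p = 0.0505). Deviations of same-numbered doxycycline and untreated libraries correlated at 0.105 in the WiNTRLINC1 line and -0.052 in the ASCL2 line across 22100 genes, and at 0.302 and -0.143 across 13215 with a mean value of at least 100, so the numbers are not shown to pair the samples. Crossed numbers in the ASCL2 line, chosen after seeing the data, were fitted to that line alone and gave 14 members. That line fitted alone without a block also gave 14. Depth is unknown here, and EDA2R had values of 8 to 24 in the ASCL2 line.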
